A study of Mus musculus with 9 samples.

Results

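The GDNF family ligand genes Gdnf, Nrtn and Artn, the signalling receptor gene Ret and the co-receptor genes Gfra1, Gfra2 and Gfra3 were taken by symbol from the deposited gene counts. All 7 were present among 22609 genes, and all 7 had enough reads to be tested among 16091 genes. RNA was sequenced from dorsal root ganglia (DRG), lumbar spinal cord (cord) and punches of hind paw skin of male C57 mice aged 8 to 12 weeks, with 3 samples per tissue. Every sample came from a mouse given paclitaxel, a chemotherapy drug that stabilises microtubules, in 2 intraperitoneal injections of 2 mg/kg, and an LTβR antagonist, which blocks the receptor for lymphotoxin, with 15 µg put into the hind paw and 15 µg into the spinal fluid. Tissue was taken 6 days after the last paclitaxel injection. The sample titles put the antagonist at days 1 and 4, whereas the series text puts it between the paclitaxel injections and 1 day after them. Because all 9 samples shared both agents, and samples given control IgG are not analysed here, the comparisons are between tissues of treated mice and bear on no effect of either agent.

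The ligands of this family are secreted dimers that bind a co-receptor anchored in the membrane by a lipid tail. The complex of ligand and co-receptor then activates Ret, a receptor tyrosine kinase. GDNF prefers Gfra1, neurturin (Nrtn) prefers Gfra2 and artemin (Artn) prefers Gfra3. In the sensory system Ret marks many nociceptors and some mechanoreceptors, Gfra3 marks a set of peptidergic nociceptors, and spinal motor neurons also use Ret and Gfra1. Ligand made in target tissue such as skin and muscle supports the neurons that innervate it.

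The libraries held 15537545 to 23229724 reads counted on genes. Levels are counts-per-million (CPM) on TMM-scaled library sizes, on which 3 reads in a library equal 0.134 to 0.185 CPM. Differences between tissues are log2 fold changes ± standard error, and a gene was called where its Benjamini-Hochberg adjusted p over all tested genes was under 0.05 in edgeR's quasi-likelihood test. Whether a tissue's 3 samples are 3 mice is not labelled, so p-values cover only the spread among the samples at hand, which may be technical. The labelled tissues carried their defining markers. The summed level of 10 sensory neuron markers was 3653 to 4383 CPM in DRG, 22.3 to 28.2 CPM in cord and 9.81 to 10.5 CPM in paw, where Tlx3 had no read. Keratinocyte markers summed to 36580 to 55350 CPM in paw and at most 36.6 CPM elsewhere, and the oligodendrocyte markers to 2217 to 2790 CPM in cord and at most 187 CPM elsewhere. Some libraries stood apart. Cord 3 carried 8545 CPM of 7 Schwann and satellite glia markers against 3115 and 3311 CPM in the other cord libraries, and 1158 CPM of 6 fibroblast markers against 485 and 385 CPM. DRG 1 and DRG 2 carried 606.5 and 943 CPM of 6 skeletal muscle markers against 31.6 CPM in DRG 3.

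Proximal promoters are shown for Gdnf and Nrtn because these ligands shared the tissue pattern described next. RefSeq promoter sequences (GRCm38.p6) were matched for 4 of the 7 genes, namely Gdnf, Nrtn, Artn and Gfra1, and not for Ret, Gfra2 or Gfra3. Each line gives the 250 bases before an annotated start, 5′ to 3′ on the gene's own strand, with motif matches in capitals. The Gdnf window lies at chr15:7809798-7810047 on the plus strand, before the first of 2 annotated starts, and the Nrtn window at chr17:56757549-56757798 on the minus strand.
Gdnf: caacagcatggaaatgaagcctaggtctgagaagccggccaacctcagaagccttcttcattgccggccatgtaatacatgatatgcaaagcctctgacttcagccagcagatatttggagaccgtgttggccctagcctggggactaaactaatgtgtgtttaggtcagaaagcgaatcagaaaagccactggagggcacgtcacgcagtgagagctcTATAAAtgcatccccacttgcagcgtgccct
Nrtn: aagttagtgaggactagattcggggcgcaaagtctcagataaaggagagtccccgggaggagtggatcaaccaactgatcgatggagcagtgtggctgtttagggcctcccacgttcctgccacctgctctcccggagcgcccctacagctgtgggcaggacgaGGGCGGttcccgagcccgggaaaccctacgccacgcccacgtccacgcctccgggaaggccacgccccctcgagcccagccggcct
The capitals in Gdnf mark TATAAA, whose first base lies 31 bases before the annotated start, and those in Nrtn mark GGGCGG, the GC box. Both strands were searched for TATAAA, for the GC box GGGCGG, for CCAAT, for the cyclic AMP response element TGACGTCA and for the E-box CACGTG. None of these motifs overlaps another in the 2 windows. TATAAA occurred in 12.4% and GGGCGG in 32.7% of 32851 promoter windows of the same length. GC content was 50.8% in the Gdnf window and 64.8% in the Nrtn window, against a median of 52.4% over all windows, and the number of CG dinucleotides was 7 and 19 against a median of 6. The window before the second Gdnf start, not printed here, differed. It had no TATAAA, 1 CCAAT match, 46.8% GC and 14 CG dinucleotides. These matches are descriptions of the sequence. The counts are per gene, so they do not show which start was used.

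The ligand genes were low everywhere, and Gdnf and Nrtn were highest in paw skin. Gdnf had 5, 8 and 8 reads in DRG 1 to 3, 5, 7 and 4 reads in cord 1 to 3, and 45, 54 and 48 reads in paw 1 to 3. In CPM this was 0.223, 0.386 and 0.396 in DRG, 0.25, 0.327 and 0.23 in cord, and 2.69, 3.33 and 2.83 in paw. Every paw library lay above every DRG and cord library, and the DRG and cord ranges overlapped. The paw level of Gdnf exceeded that of DRG by 3.12 ± 0.30 (adjusted p = 1.34e-06) and that of cord by 3.41 ± 0.31 (adjusted p = 8.53e-07), with edgeR. Between DRG and cord the difference of 0.29 ± 0.40 was not called (adjusted p = 0.619).

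Nrtn, the neurturin gene, had the highest level of the ligands in paw. It had 5, 8 and 4 reads in DRG, 7, 11 and 2 reads in cord, and 79, 141 and 139 reads in paw, or 4.73, 8.70 and 8.19 CPM there. The paw libraries again lay apart from the other 6, and paw 1 was the lowest of them. The paw level of Nrtn exceeded the DRG level by 4.71 ± 0.41 (adjusted p = 6.22e-07) and the cord level by 4.39 ± 0.40 (adjusted p = 9.03e-07, edgeR). DRG and cord overlapped, with a difference of −0.32 ± 0.57 (adjusted p = 0.658). Gdnf and Nrtn passed the filter on low counts through the 3 paw libraries alone, so a gene with their pattern could enter the test only if paw was high.

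Beside these paw levels, skeletal muscle markers summed to 13310 to 17000 CPM in paw, 31.6 to 943 CPM in DRG and 14.0 to 62.7 CPM in cord, with none of the 6 markers at 0 reads in any tissue. Smooth muscle markers summed to 1341 to 1473 CPM in paw and at most 168 CPM elsewhere. Their part in the Gdnf and Nrtn differences, like that of the keratinocyte markers, was not tested. With DRG 1 and DRG 2 left out, which leaves 1 DRG library whose spread is taken from the other tissues, the paw excess over DRG was 2.87 for Gdnf and 5.13 for Nrtn.

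Artn, the artemin gene, did not follow the other ligands. It had 3, 2 and 9 reads in DRG, 11, 14 and 10 reads in cord, and 4, 12 and 14 reads in paw. Cord (0.55, 0.653 and 0.574 CPM) and paw (0.239, 0.741 and 0.825 CPM) had means of 0.592 ± 0.0538 and 0.602 ± 0.316 CPM (SD, n = 3), and DRG had 0.225 ± 0.192 CPM. All 3 cord libraries lay above all DRG libraries, whereas paw overlapped with both. Artn was called with a paw excess over DRG of 1.41 ± 0.59 (adjusted p = 0.0455, edgeR), but that call was fragile. It was lost without DRG 1 (adjusted p = 0.143), DRG 2 (0.134), cord 1 (0.0532), cord 2 (0.0548), cord 3 (0.0528), paw 2 (0.125) or paw 3 (0.166). It was also lost with DESeq2 (adjusted p = 0.0714), without the filter on low counts (adjusted p = 0.0534) and without DRG 1 and DRG 2 (0.42, adjusted p = 0.613). The adjusted p ran from 0.00827 to 0.613 over its 16 alternatives.

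Artn was lower in DRG than in cord by a difference of −1.39 ± 0.58 that was not called (adjusted p = 0.0577, edgeR). Over 17 alternatives its adjusted p ran from 0.0127 to 0.675. It passed 0.05 with limma-voom (adjusted p = 0.0364), with the replicate number as a block, without DRG 3 (−2.29, adjusted p = 0.0127) and without paw 1 (adjusted p = 0.0377). Between paw and cord the difference was 0.02 ± 0.51 (adjusted p = 0.976). Artn reached the cutoff of the filter on low counts in 3 cord, 2 paw and 0 DRG libraries. It thus entered the test through the tissues where it was higher, which limits both of its comparisons with DRG. At 2 to 14 reads per library, Artn could not be ordered over the tissues.

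**Figure D1:**
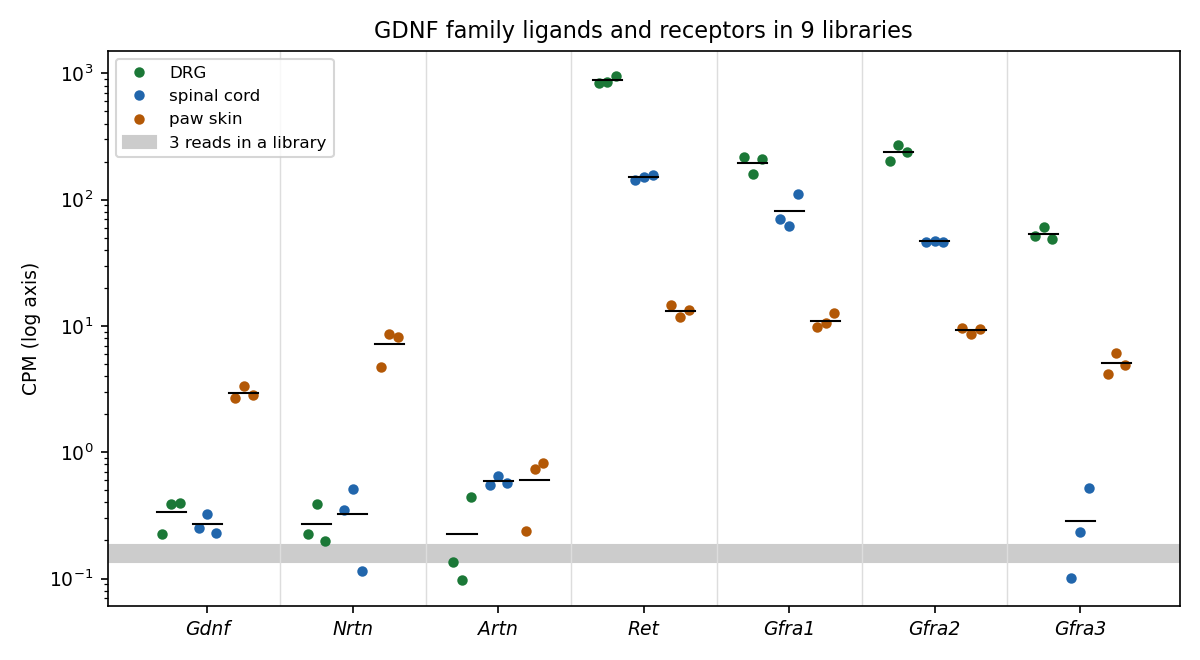
CPM of each gene in the 9 libraries on a log axis, with points for samples 1 to 3 from left to right, black lines for means, and a grey band for the level of 3 reads in a library. Gdnf and Nrtn are highest in the paw libraries, at 2.69 to 3.33 and 4.73 to 8.70 CPM, whereas Ret and its co-receptors are highest in DRG.

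The receptor genes were highest in DRG. Ret, the kinase shared by all these ligands, stood at 840, 852 and 955 CPM in DRG 1 to 3, at 144, 152 and 157 CPM in cord 1 to 3, and at 14.5, 11.8 and 13.4 CPM in paw 1 to 3. The 3 tissues did not overlap and fell in the order DRG, cord, paw. Ret was higher in DRG than in cord by 2.55 ± 0.11 (adjusted p = 5.11e-09), a 5.85-fold difference. Paw lay below DRG by −6.06 ± 0.13 (adjusted p = 1.02e-11), or 66.5-fold, and below cord by −3.51 ± 0.12 (adjusted p = 1.18e-10, edgeR).

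In bulk tissue, fewer cells of a type and less RNA per cell cannot be told apart. The sensory neuron markers given above followed the same direction from DRG to the other tissues as Ret, and their part in its difference was not tested. Chat, the enzyme that makes acetylcholine in motor neurons, stood at 27.6 ± 1.82 CPM in cord, with 6 reads over the 3 DRG libraries and 9 over paw. The whole list of 6 motor neuron markers summed to 1455 to 1876 CPM in DRG, 173 to 229 CPM in cord and 3.35 to 5.925 CPM in paw. It holds Isl1 (91.8 CPM in DRG, 1.89 in cord) and Prph (1579 CPM in DRG, 69.1 in cord), which sensory neurons also express and which ran opposite to Chat. Mnx1 had no read in paw. The part of these transcripts in the cord level of Ret was not tested.

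Gfra2, the preferred co-receptor of neurturin, had the order of Ret. Its level was 202, 270 and 240 CPM in DRG, 46.6, 47.4 and 46.2 CPM in cord, and 9.64, 8.70 and 9.48 CPM in paw, with no overlap between tissues. The cord libraries lay close together, with an SD of 0.605 CPM. DRG exceeded cord by 2.35 ± 0.11 (adjusted p = 1.05e-08). Paw lay below DRG by −4.68 ± 0.13 (adjusted p = 2.76e-11) and below cord by −2.33 ± 0.12 (adjusted p = 3.95e-09, edgeR).

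Gfra1, the preferred co-receptor of GDNF, also followed the order DRG, cord, paw, with a smaller step between DRG and cord. It was at 219, 159 and 210 CPM in DRG, 70.8, 62.2 and 111 CPM in cord, and 9.82, 10.5 and 12.6 CPM in paw. The tissues did not overlap, and DRG 2 and cord 3 came closest to each other. DRG exceeded cord by 1.27 ± 0.21 (adjusted p = 0.000466), or 2.41-fold. Paw lay below DRG by −4.16 ± 0.24 (adjusted p = 5.86e-08) and below cord by −2.89 ± 0.23 (adjusted p = 7.99e-07, edgeR). Cord 3, the highest cord library for Gfra1, was the one with high Schwann cell and fibroblast markers. Without it the DRG excess was 1.57 (adjusted p = 1.05e-05, within a range of 5.74e-08 to 0.00435 over 17 alternatives). The part of those markers in the Gfra1 level was not tested.

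Gfra3, the preferred co-receptor of artemin, had a different order, with cord last. It was at 51.7, 60.8 and 49.3 CPM in DRG and 4.13, 6.11 and 4.95 CPM in paw. In cord it had 2, 5 and 9 reads, or 0.1, 0.233 and 0.517 CPM, which is around the level of 3 reads in a library. DRG exceeded cord by 7.59 ± 0.29 (adjusted p = 2.37e-09), a 193-fold difference. Paw lay below DRG by −3.41 ± 0.20 (adjusted p = 1.8e-08) and above cord by 4.18 ± 0.33 (adjusted p = 2.47e-07, edgeR). Gfra3 reached the cutoff of the filter on low counts in 3 DRG, 3 paw and 1 cord libraries, where 3 were needed. It thus entered the test through the tissues where it was higher, which limits both of its comparisons with cord. As for Gfra1, the highest cord library was cord 3. There the 10 sensory neuron markers lay above the mean of the other cord libraries by a median of 1.17 on the log2 scale. Not all were higher, since Isl2, Pou4f1 and Tlx3 each lay below at least 1 other cord library. Some of the others had few reads, such as Prdm12 with 3, 3 and 11 in cord 1 to 3. The marker sum was 28.2 CPM in cord 3 against 22.3 and 23.2 CPM. Without cord 3 the DRG excess was 8.27 and the paw excess 4.89, both over 1.5 times larger as folds, and the part of those markers was not tested.

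**Figure D2:**
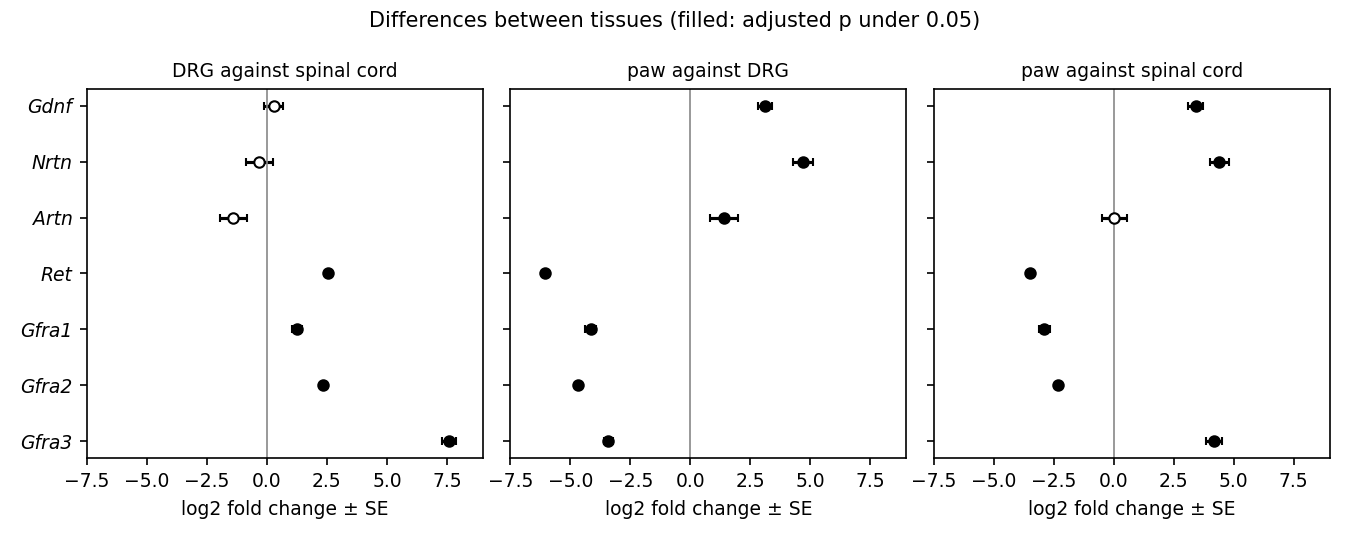
Log2 fold changes of the 7 genes in the 3 comparisons, with bars for ± 1 standard error and filled points for an adjusted p under 0.05 in edgeR. Receptor genes lie right of 0 in DRG against cord and left of 0 in paw against DRG, Gdnf and Nrtn lie right of 0 in both paw comparisons, and Gfra3 changes side between the paw comparisons.

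Counted over the genes, 4 of 7 were called higher in DRG than in cord (Ret, Gfra1, Gfra2 and Gfra3) and 0 lower. Of all tested genes 29% were called higher and 30.6% lower in that comparison. Gdnf, Nrtn and Artn were not called. The median log2 fold change of the 7 was 1.27, against −0.02 over all tested genes. Paw against DRG had 3 called higher, counting Artn, and 4 lower, beside 39.7% and 40.8% of all tested genes, with a median of −3.41 against −0.02. In paw against cord 3 were called higher (Gdnf, Nrtn and Gfra3) and 3 lower (Ret, Gfra1 and Gfra2), beside 39.9% and 41.7% of all tested genes. The median there was 0.02 against −0.03. Each of these medians is the value of 1 gene, namely Gfra1, Gfra3 and Artn in turn. In paw against DRG it does not describe the whole family, since the ligands lay above 0 and the receptors below. Gdnf and Nrtn could enter these counts and medians only by being high in paw. Artn entered them through cord and paw, and Gfra3 through DRG and paw. Since most genes differed between any pair of these tissues, the count called in any of these comparisons does not set the family apart. The comparisons share libraries, so they are not independent of one another.

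To compare levels between genes, CPM was divided by the exon length of each gene in GENCODE M21, in units of CPM per kilobase. These lengths come from another build than the mm9 counts, so they are approximate. In DRG the order was Ret at 130 ± 9.35, Gfra2 at 67.1 ± 9.54, Gfra1 at 42.2 ± 6.98 and Gfra3 at 26.99 ± 3.04 CPM per kilobase (SD, n = 3). No neighbours in that order overlapped over the DRG libraries. The ligands followed far below, at 0.263 ± 0.0998 for Nrtn, 0.104 ± 0.088 for Artn and 0.0912 ± 0.0264 for Gdnf, and their ranges of single libraries touched or overlapped for Nrtn and Artn and for Artn and Gdnf.

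In cord Ret stood at 22.3 ± 0.945, Gfra1 at 17.6 ± 5.67 and Gfra2 at 13.2 ± 0.171 CPM per kilobase. The Gfra1 libraries overlapped with those of Ret, and Gfra1 in cord 2 (13.4) was level with Gfra2 in the same library (13.4). Nrtn (0.319 ± 0.196), Artn (0.272 ± 0.0247), Gfra3 (0.142 ± 0.107) and Gdnf (0.0732 ± 0.0139) were low and overlapped with their neighbours.

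Paw skin had another order. Nrtn was first at 7.04 ± 2.11 CPM per kilobase, and its lowest paw library (4.62) lay above the highest value of any other member (3.06, Gfra3 in paw 2). Gfra2 (2.62 ± 0.142), Gfra3 (2.54 ± 0.498), Gfra1 (2.36 ± 0.313) and Ret (1.96 ± 0.205) could not be separated from their neighbours in the order, since their libraries overlapped. Gdnf at 0.803 ± 0.0917 and Artn at 0.276 ± 0.145 lay below all receptor genes, without overlap. The order around Ret depended on the length used. With the principal transcript in place of the exon union, Ret was at 162 CPM per kilobase in DRG, 27.6 in cord and 2.43 ± 0.254 in paw. In cord its libraries (26.4 to 28.7) then lay above all those of Gfra1, and in paw its mean lay above that of Gfra1 with the libraries still overlapping. Gfra2 changed little, and the other members have the same length by both rules.

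The mean shares of the co-receptors differed by tissue, although these shares were not tested. Of the summed CPM per kilobase of Gfra1, Gfra2 and Gfra3, Gfra2 took 49.1 ± 5.09% in DRG, Gfra1 31.1 ± 6.13% and Gfra3 19.8 ± 1.85%. Cord held 55.9 ± 7.55% Gfra1, 43.7 ± 7.74% Gfra2 and 0.435 ± 0.259% Gfra3. Paw held nearly even shares, with 31.4 ± 2.8% Gfra1, 35.02 ± 4.0% Gfra2 and 33.6 ± 5.03% Gfra3. Over single libraries only the Gfra3 share kept all tissues apart. The Gfra1 share overlapped between DRG and paw, and the Gfra2 share in cord overlapped with both other tissues. Among the DRG libraries, DRG 2 had the lowest Gfra1 share (24.3%) and the highest Gfra2 share (54.1%), and among the cord libraries cord 3 had the highest Gfra1 share (64.4%).

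**Figure D3:**
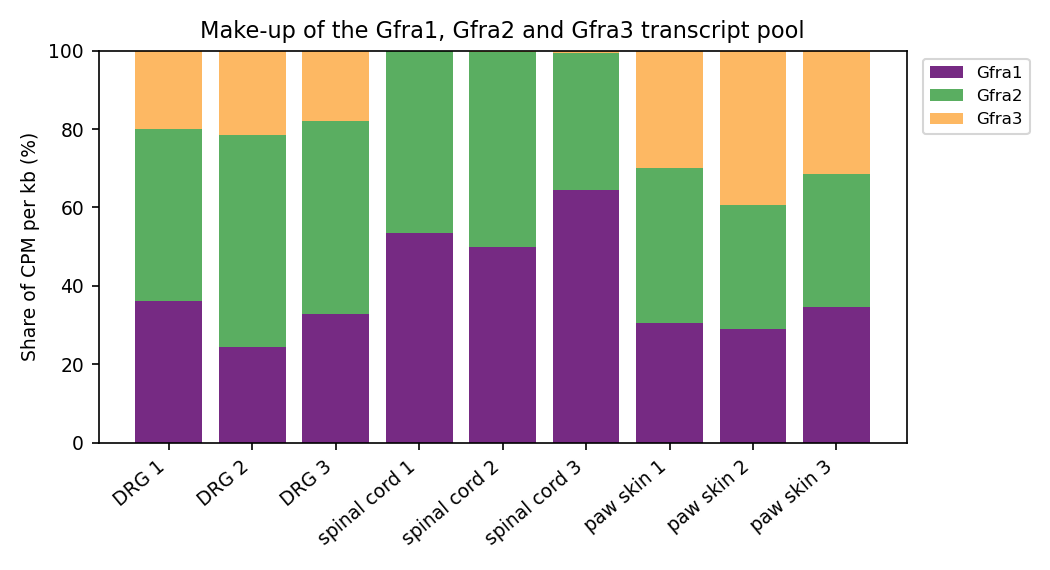
Share of Gfra1, Gfra2 and Gfra3 in their summed CPM per kilobase, in percent, with 1 stacked bar for each of the 9 libraries. Gfra3 takes 17.9 to 21.6% in DRG, under 1% in cord and 29.95 to 39.3% in paw.

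Relative to Ret in the same library, where transcript length cancels between tissues, all 3 co-receptors had their highest mean in paw. The log2 difference between Gfra1 and Ret was −1.94, −2.42 and −2.18 in DRG, −1.02, −1.29 and −0.49 in cord, and −0.56, −0.17 and −0.09 in paw. DRG lay apart from both other tissues, while paw 1 lay within the cord range. The Gfra2 difference was −1.90 ± 0.21 in DRG, −1.69 ± 0.07 in cord and −0.51 ± 0.08 in paw (SD, n = 3), and DRG and cord overlapped. For Gfra3 it was −4.03 ± 0.23 in DRG, −8.75 ± 0.74 in cord and −1.38 ± 0.43 in paw, with no overlap. The cord value rests on 2, 5 and 9 reads of Gfra3, so it depends on the prior count added before taking logs. Its mean was −9.17 with a prior count of 0.5 in place of 2.

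Thus Ret differed more between paw and DRG than its co-receptors did, by 1.91 on the log2 scale for Gfra1, 1.39 for Gfra2 and 2.65 for Gfra3. Each of these 3 differences, and each of 9 in all except Gfra1 between paw and cord (exact p = 0.2) and Gfra2 between DRG and cord (exact p = 0.3), had an exact two-sided permutation p of 0.1. That is the smallest p that 3 against 3 libraries can give, so none could pass 0.05, and adjusted over the 9 they were 0.129 or more.

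**Figure D4:**
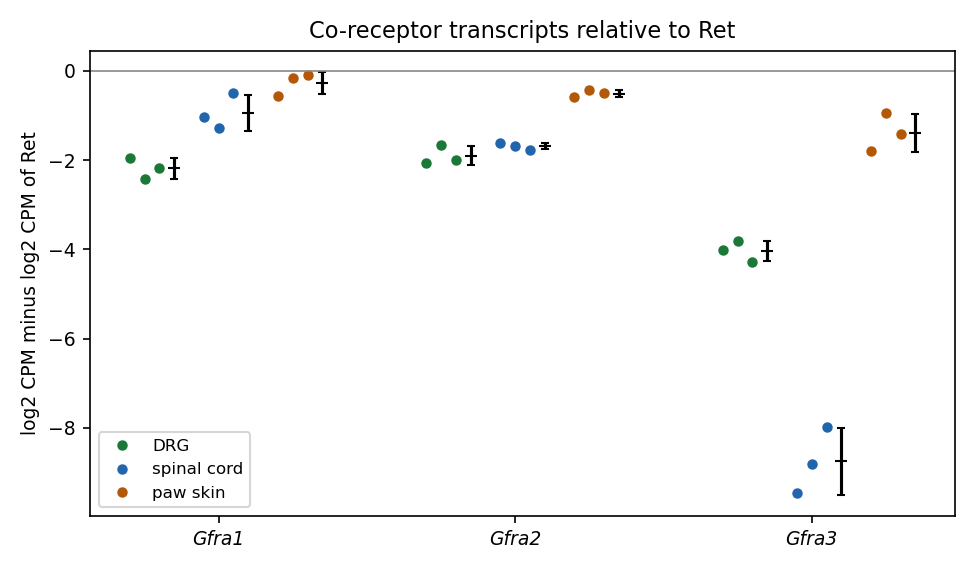
Log2 CPM of each co-receptor minus log2 CPM of Ret in the same library (prior count of 2), with points for the 3 libraries of a tissue and bars for the mean ± SD. The paw mean is highest for all 3 co-receptors, at −0.27, −0.51 and −1.38, although paw 1 lies within the cord range for Gfra1, and Gfra3 in cord lies lowest at −8.75.

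The other ligands and receptors of the family were scarce or split. Pspn, the persephin gene, had 0 reads in DRG, 3 over cord and 2 over paw. Gfral, the receptor of Gdf15 that also works through Ret, had 1, 0 and 2 reads, and Gdf15 had 2, 4 and 7 reads over the libraries of DRG, cord and paw. None of these could be tested. Gfra4, the persephin co-receptor, was at 5.21 ± 0.444 CPM in DRG, 9.42 ± 2.86 CPM in cord and 0.359 ± 0.151 CPM in paw. Unlike the 4 receptors above, it was called lower in DRG than in cord (−0.86 ± 0.23, adjusted p = 0.00749, edgeR).

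Ncam1, an adhesion molecule that can bind GDNF with Gfra1 in the absence of Ret, was at 230 ± 10.7 CPM in DRG, 462 ± 12.7 CPM in cord and 16.8 ± 5.37 CPM in paw. Sdc3, a heparan sulfate proteoglycan that binds these ligands, was at 418 ± 28.3, 585 ± 48.3 and 42.1 ± 4.41 CPM. Both were called lower in DRG than in cord (Ncam1 2.01-fold, adjusted p = 0.000504, and Sdc3 by −0.48 ± 0.11, edgeR) and lower in paw than in either. Gas1, a relative of the co-receptors, was the one tested gene of this group called higher in paw, at 122 ± 0.939 CPM against 6.54 ± 1.32 in DRG and 9.84 ± 1.14 in cord.

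Sorl1, a sorting receptor that takes up GDNF and Gfra1, was the one called higher in DRG than in cord (1.02 ± 0.26). Its means had the order of Ret, at 123, 60.6 and 53.4 CPM in DRG, cord and paw. Unlike for Ret, paw and cord overlapped and their difference was not called (−0.18 ± 0.26, adjusted p = 0.528, edgeR). Sorl1 varied widely among DRG libraries, at 119, 75.4 and 174 CPM. Sort1, the related sortilin gene, was at 172 ± 48.8, 328 ± 17.1 and 204 ± 35.3 CPM in DRG, cord and paw and was not called between paw and DRG (adjusted p = 0.261, edgeR). In all, 6 of the 9 genes of this group were tested, with 1 higher and 5 lower in DRG against cord, 1 higher and 4 lower in paw against DRG, and 1 higher and 4 lower in paw against cord. Of all tested genes, 29% and 30.6%, 39.7% and 40.8%, and 39.9% and 41.7% were called higher and lower in these comparisons.

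Of 29 adaptor and effector genes of Ret signalling, 28 were tested. In DRG against cord 12 were called higher and 6 lower, with a median log2 fold change of 0.37. In paw against DRG 7 were higher and 18 lower (median −0.89), and in paw against cord 9 were higher and 13 lower (median −0.30). The shares of all tested genes called higher and lower were 29% and 30.6% in DRG against cord, 39.7% and 40.8% in paw against DRG, and 39.9% and 41.7% in paw against cord, so the last count lay near the background. Dok4, a docking protein that binds phosphorylated Ret, was higher in DRG than in cord by 4.66 ± 0.14, at 397 against 15.6 CPM, and its relative Dok5 was lower by −2.11 ± 0.21. Shc2, an adaptor found in neurons, was lower in paw than in DRG by −4.80 ± 0.15, at 6.52 against 182 CPM.

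The adaptor gene Grb7 stood higher in paw, over DRG by 6.68 ± 0.18, with 1406 reads over paw and 17 over DRG. The ubiquitin ligase gene Cblc was higher in paw than in cord by 8.03 ± 0.40, with 970 reads against 4. Cblc lay under the cutoff of the filter on low counts (0.511 CPM) in every DRG and cord library. It thus entered the test through paw alone, and the size of its fold rests on few cord reads. Grb7 lay under that cutoff in DRG and entered through cord and paw. Rap1gap, a Rap GTPase-activating protein, was lower in paw than in cord by −4.06 ± 0.12. These adaptors serve many receptors, so their levels are not specific to Ret.

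All 12 target and feedback genes of receptor tyrosine kinase signalling were tested. In DRG against cord 3 were called higher and 6 lower (median −0.14), in paw against DRG 5 and 5 (median 0.08), and in paw against cord 3 and 8 (median −0.87). Beside 39.7% and 40.8% of all tested genes in paw against DRG, the 5 and 5 of 12 lay near the background. The shares were 29% and 30.6% in DRG against cord and 39.9% and 41.7% in paw against cord. Etv1, an ETS transcription factor, was higher in DRG than in cord by 0.67 ± 0.12 and its paw level lay below DRG by −3.27 ± 0.14 and below cord by −2.60 ± 0.14. Etv4, an ETS factor induced by GDNF in some neurons, was lower in DRG than in cord by −1.56 ± 0.13, the opposite of Ret. Spry1, a feedback inhibitor, was highest in paw, over DRG by 3.44 ± 0.11 and over cord by 2.52 ± 0.10.

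The tested genes most like each member were found by the root mean square difference of centred log2 CPM over the 9 libraries. For Ret they were Rbm11 (0.168), Fkbp1b (0.202) and the neuronal tubulin gene Tubb3 (0.236). Gfra1 was nearest to Plekha6 (0.203), C030030A07Rik (0.214) and the sodium channel subunit gene Scn3b (0.217), and Gfra2 was near to D17H6S56E-3 (0.168) and Nipal3 (0.184). Gfra3 had no neighbour as close. Its nearest were Tspan8 (0.603), Fam19a3 (0.667) and the lysophosphatidic acid receptor gene Lpar3 (0.683).

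Nrtn was nearest to the sphingosine kinase gene Sphk1 (0.298), the small heat shock protein gene Hspb6 (0.325) and Unc45b (0.343), a chaperone of muscle myosin. Gdnf was nearest to Efcab4a (0.17), the ribosomal protein gene Rps26 (0.174) and Xkr9 (0.181), and Artn to Arhgap20 (0.345), Rhoh (0.411) and A930003A15Rik (0.419). Within the family, Gfra1 and Gfra2 were the closest pair (0.527), followed by Ret and Gfra2 (0.623), Gdnf and Nrtn (0.736) and Ret and Gfra1 (0.83). Libraries of a tissue share most of what sets these distances, so they describe 3 tissues rather than 9 independent points, and with a prior count of 2 low genes are drawn together.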

How the data were processed

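Per the labels' protocols, oligo-dT selected RNA was made into dUTP-stranded libraries and sequenced as 50 bp single-end reads. The submitters' processing notes name bcl2fastq, TopHat2, HTSeq and mm9. The sources used here give no versions, gene models or strand setting. The files deposited by the authors hold raw integer counts for each gene, with 5 summary rows (42.9 to 59.3% of each file) that were left out. Of these, reads with several alignments were 31.9 to 47.6% of a file.

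Of 50-base windows in GENCODE M21 transcripts, 6.66% of those of Gfra1 also occur in the antisense gene Gm16277 and 1.34% of those of Gfra2 in other genes. The other 5 members had 0% in common with other genes.

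Groups are the tissues named in the titles. No library repeated another: within tissues, chi-square over its degrees of freedom was 7.55 to 38.4. All 9 libraries entered 1 fit by tissue, leaving 6 residual degrees of freedom. It used filterByExpr, TMM factors, robust glmQLFit and glmQLFTest of edgeR 4.0.16 (R 4.3.3). The standard error is the size of the log2 fold change over the square root of F. The functions were tested on simulated data in which few genes differed. Most genes differed between these tissues, so that test does not bear on the scaling here. Alternatives used DESeq2 1.42.0, limma 3.58.1 voom, other scalings and filters, fewer samples and a replicate block.

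The members and lists were chosen with earlier results of these data known. The text names all 7 members, all co-receptor genes listed, the largest called adaptor and target gene per direction and comparison at 10 CPM or more, and the 3 genes nearest each member, of which 1 is not reported here. Markers are named where they touch a result, and motifs were a fixed set of 5.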

Additional observations from a re-analysis of the deposited data

How the results depend on the processing

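Outside Artn, 303 of 304 alternative values of the 18 fold changes kept their direction and their side of the threshold. The exception was Nrtn in DRG against spinal cord, which was not called and ran from −0.67 to 0.15 on leaving out 1 library each (0.15 without spinal cord 2). Artn in paw against spinal cord changed direction, also without being called, with limma-voom (−0.14), with the replicate block (−0.057) and on leaving out 1 library each (−0.28 to 0.39). The cause was not tested. The number of members called ran from 4 to 5 in DRG against spinal cord and from 6 to 7 in paw against DRG, with Artn as the gene concerned, and was 6 throughout in paw against spinal cord. With only paw and DRG in the fit, Artn had too few reads to be tested. The same held for Gdnf and Nrtn with only DRG and spinal cord in the fit, so the 304 values do not cover that setting for them. Upper quartile factors moved the median of all genes in paw against DRG by 0.119. The deviations of same-numbered libraries correlated at −0.13 to 0.271, and those of differently numbered libraries at −0.447 to 0.341. With 3 libraries per tissue this cannot show whether a number marks 1 mouse. The labels give no pairs, so the main fit did not use the numbers. With the replicate block 9500, 12906 and 13074 genes were called in place of 9584, 12946 and 13127, and 5, 7 and 6 members. Artn in DRG against spinal cord was then called (−1.46, adjusted p = 0.047, against 0.0127 to 0.675 over its alternatives). Depth limits Gdnf, Nrtn, Artn and spinal Gfra3, whose libraries held 2 to 14 reads where they were low.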
